A study of Mus musculus with 10 samples.

Results

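The spindle-chromosome complex (SCC) of the mouse egg was compared with the intact egg it is taken from. Both are made from eggs held at metaphase of meiosis II (MII), and the series asks whether maternal mRNAs are concentrated at the meiotic spindle. The comparison holds every array titled as SCC (3, replicates 1 to 3) and every array titled as MII oocyte (3, replicates 2 to 4), 6 of the 10 arrays, with all 45101 probe sets. The other 4 arrays are of cytoplasts, the oocytes left after the SCC was removed, and they entered the fit for its estimate of the spread; their own level is given for 1 gene. All groups came from B6D2F1 females given eCG (equine chorionic gonadotropin) and, 48 h later, 5 IU of hCG (human chorionic gonadotropin). Eggs matured in the animal, were collected 16 h after hCG and were freed of cumulus cells with hyaluronidase (120 IU per ml). No group carries an engineered allele or a drug treatment, according to the labels. The SCC was cut out by microsurgery. The labels do not say how much cytoplasm came with it or how many complexes or eggs were pooled for an array.

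The fully grown oocyte is transcriptionally silent and lives on stored maternal mRNA, which is translated, stored or degraded as meiosis proceeds. The MII spindle of the mouse has no centrioles, lies close under the cortex and is surrounded by endoplasmic reticulum and mitochondria. It carries kinetochore proteins, microtubule motors, cohesin and the chromatin of the arrested chromosomes. RNAs that copurify with it could code for any of these proteins or for none of them. The intact egg contains its own SCC, so a difference between these 2 groups compares the complex with the whole that includes it.

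Levels are intensities of Affymetrix probe sets on a linear scale, each a summary of several short probes, and differences are SCC minus MII oocyte on the log2 scale. Up to 50 ng of RNA per sample went through 2 rounds of amplification, and 10 µg of labelled cRNA were put on each array. A level is therefore a share of that sample's RNA and not an amount per egg, and in such bulk samples the number of complexes or eggs and the RNA in each cannot be told apart. Background on an array was set at the 95th percentile of the probe sets of genes of other tissues, an intensity between 77.0 and 121 on the 6 arrays. Of 23737 probe sets tested, 5911 were above it on all 6 arrays and 15122 on none. The titles call the replicates biological but name no animals or pools, so the p-values cover only the spread seen between these arrays, which may be partly technical.

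All 10 oocyte markers with a probe set, among them Oosp1, Gdf9 and the zona pellucida genes, were above background on each of the 6 arrays. Their summed intensity ran from 34211 to 46815 in the SCC and from 26927 to 44069 in the MII oocyte. The 12 cumulus and granulosa cell markers summed to between 395 and 502, with 1 or 2 of them above background on an array (Nr5a2, and Foxl2 on 2 MII oocyte arrays). The array measures did not separate the groups by exact two-sided permutation tests, for which 0.1 is the smallest p that 3 against 3 arrays allow. For example, the beta-actin control's 3′ minus 5′ log2 difference averaged 3.42 ± 0.20 for the SCC and 3.85 ± 0.54 for the MII oocyte (SD, n = 3 each; exact p = 0.3). MII oocyte replicate 3 stood apart from the rest of its group. Its log2 values correlated at 0.990 and 0.989 with SCC replicates 1 and 2, and at 0.975 and 0.977 with MII oocyte replicates 2 and 4. The controls spiked in at hybridisation placed it, with SCC replicates 1 and 2, among the dimmer arrays, and SCC replicate 3 with MII oocyte replicates 2 and 4 among the brighter ones. Values within these classes are given below. The median SD of bright probe sets was 0.28 in the MII oocyte and 0.20 in the SCC (log2, n = 3 each).

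A small set of transcripts was higher in the SCC than in the intact egg, by 1.96-fold to 3.32-fold where both groups could be measured, and none was lower at the same threshold. With an adjusted p under 0.05 by limma, 10 of 23737 probe sets were higher (0.0421%) and 0 were lower (0%), and at the level of genes 6 of 12713 were higher (0.0472%). At an unadjusted p under 0.05 there were 2039 higher and 832 lower. The called transcripts code for the cytokinesis protein anillin, for proteins of chromatin, for an RNA polymerase subunit, for a protein of the centrosome and for enzymes of the endoplasmic reticulum.

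Anln codes for anillin, which ties actin, septins and the cell cortex together at the cleavage furrow. Its probe set 1433543_at read 6566, 7813 and 8127 on SCC replicates 1, 2 and 3 and 3819, 3278 and 3948 on MII oocyte replicates 2, 3 and 4. Every SCC array lay above every MII oocyte array, with a gap wider than the range of either group. The mean was 7502 ± 826 (SD, n = 3) for the SCC against 3682 ± 355 for the intact egg, 2.04-fold higher (log2 difference 1.03, SE 0.146, adjusted p = 0.0416). The 2nd Anln probe set, 1439648_at, read 1857, 2593 and 2809 on SCC replicates 1, 2 and 3 and 899, 846 and 891 on MII oocyte replicates 2, 3 and 4. Here the 3 MII oocyte arrays lay within a narrow range, and the SCC stood 2.71-fold higher (log2 difference 1.44, SE 0.162, adjusted p = 0.0239). These probe sets gave 1.07 among the brighter arrays and 1.13 among the dimmer arrays for 1433543_at, and 1.65 among the brighter arrays and 1.37 among the dimmer arrays for 1439648_at (log2 differences within the control classes).

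**Figure D1:**
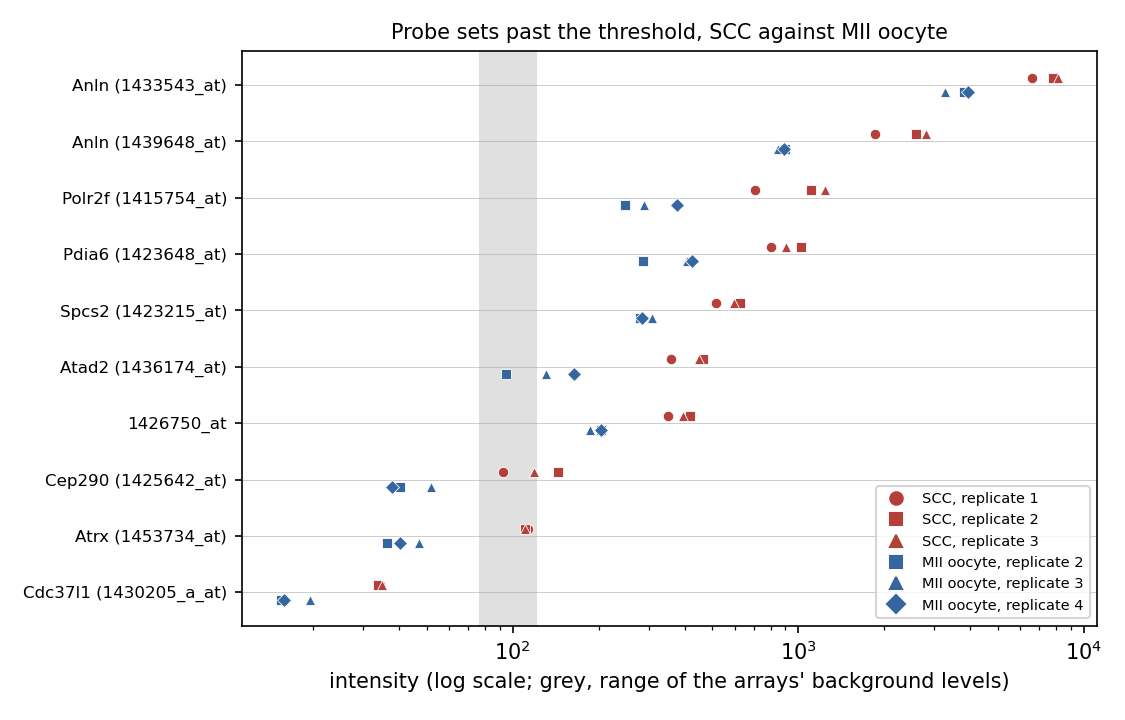
Intensity (log scale) of the 10 probe sets past the threshold on each of the 3 SCC arrays (red) and 3 MII oocyte arrays (blue), with symbols for replicates and a grey band for the range of the arrays' background levels, 77.0 to 121. In all 10 the SCC arrays lie to the right of the MII oocyte arrays; Cdc37l1 lies below the band in both groups, and Cep290 and Atrx lie below it in the MII oocyte.

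Among chromatin proteins, Atad2, an ATPase with a bromodomain, had the largest fold of the 10. Its intensities were 359, 463 and 449 on SCC replicates 1, 2 and 3 and 94.6, 131 and 164 on MII oocyte replicates 2, 3 and 4. Even the lowest SCC array was above the highest MII oocyte array by a clear margin (3.32-fold, log2 difference 1.73, SE 0.203, adjusted p = 0.0239). Its relative Atad2b, which did not pass, was at 912, 1099 and 1133 in the SCC and 448, 712 and 681 in the MII oocyte (log2 difference 0.80, SE 0.196, adjusted p = 0.142). Atrx, a chromatin remodeller of heterochromatin, passed through a dim probe set, 1453734_at, at 113, 110.1 and 111 on SCC replicates 1, 2 and 3 and 36.3, 47.1 and 40.4 on MII oocyte replicates 2, 3 and 4. None of the MII oocyte arrays was above background and only 1 SCC array was, so the SCC was at least 1.27-fold higher (log2 difference 1.44, SE 0.184, adjusted p = 0.0239). The Atrx probe set used at the gene level, 1433537_at, missed the threshold. It read 2173, 3303 and 2383 on SCC replicates 1, 2 and 3 and 638, 1296 and 878 on MII oocyte replicates 2, 3 and 4 (2.87-fold, log2 difference 1.52, SE 0.276, adjusted p = 0.069). Of the 7 Atrx probe sets tested, 6 were higher on every SCC array, but for 5 of the 6 no MII oocyte array was above background, so that 1433537_at alone gives a measured fold. The 7th, 1420945_at, was below background on all 6 arrays. Probe sets of 1 gene share their transcripts and are not separate evidence.

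Polr2f codes for a small subunit shared by the nuclear RNA polymerases. Its probe set 1415754_at read 705, 1112 and 1237 on SCC replicates 1, 2 and 3 and 247, 289 and 378 on MII oocyte replicates 2, 3 and 4. SCC replicate 1 was the lowest of its group and still above MII oocyte replicate 4, the highest of the other (3.3-fold, log2 difference 1.72, SE 0.22, adjusted p = 0.0239). In the cytoplast its mean was 460 ± 60.7 (SD, n = 4), which the SCC exceeded 2.17-fold. Every MII oocyte array read below every cytoplast array (521, 414, 503 and 402 on cytoplast replicates 1, 2, 3 and 4). The intact egg thus read below both the SCC and the cytoplast, and the cause was not tested. The MII oocyte and cytoplast means of Polr2f did not differ past the threshold (log2 difference of MII oocyte minus cytoplast -0.61, adjusted p = 0.926). No probe set passed between MII oocyte and cytoplast. The comparisons of the SCC with the MII oocyte and with the cytoplast share the SCC arrays. Another Polr2f probe set, 1427402_at, above background on 1 array, showed a log2 difference of 0.15 (adjusted p = 0.669). Of 38 RNA polymerase and general transcription factor genes measured, 1 passed (Polr2f). The polymerase II subunit Polr2d was higher on each SCC array without passing (log2 difference 0.59, adjusted p = 0.146).

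Cep290, a large protein of centriolar satellites and the base of cilia, was at 92.3, 144 and 119 on SCC replicates 1, 2 and 3 and 40.4, 51.8 and 37.9 on MII oocyte replicates 2, 3 and 4. It was above background on 2 SCC arrays and on no MII oocyte array, at least 1.33-fold higher (log2 difference 1.44, SE 0.198, adjusted p = 0.0319). Cdc37l1, related to the Hsp90 cochaperone Cdc37, passed with a probe set below background on all 6 arrays (34.3, 33.8 and 35 in the SCC and 15.4, 19.6 and 15.8 in the MII oocyte), so no fold is given (log2 difference 1.03, SE 0.129, adjusted p = 0.0239). Another Cdc37l1 probe set, 1417740_at, above background throughout, read 676, 727 and 662 in the SCC and 428, 500.4 and 511 in the MII oocyte and did not pass (log2 difference 0.52, SE 0.132, adjusted p = 0.146), and the other 2 gave 0.10 and -0.19. The probe set 1426750_at, not listed with a gene in the annotation used here, read 349, 418 and 396 on SCC replicates 1, 2 and 3 and 203, 186 and 204 on MII oocyte replicates 2, 3 and 4 (1.96-fold, log2 difference 0.97, SE 0.126, adjusted p = 0.0254).

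Within the control classes the 10 log2 differences ran from 0.96 to 2.02 among the brighter arrays and from 0.80 to 1.64 among the dimmer ones. Every SCC array was above every MII oocyte array for these 10, so their sign within a class was fixed beforehand. The brighter class holds SCC replicate 3 and MII oocyte replicates 2 and 4, the dimmer one the other 3 arrays, so each has 1 group of a single array, and these values have no replicate check of their own. The calls changed with the arrays fitted: none of the 10 passed when only the 6 arrays were fitted (smallest adjusted p = 0.113, with 1793 higher and 633 lower at an unadjusted p under 0.05), or without cytoplast replicate 1, MII oocyte replicate 2, SCC replicate 2 or SCC replicate 3 (1288 to 1819 higher and 413 to 704 lower at an unadjusted p under 0.05 in these 4). Without MII oocyte replicate 3 there were 444 higher and 253 lower calls, without SCC replicate 1 there were 25 and 0, and without cytoplast replicate 4 there were 27 and 0. Without MII oocyte replicate 4 there were 9 and 0, and 4 of the 10 were among the 9.

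Genes of the endoplasmic reticulum made up the list with the highest median difference of the 21 examined when all arrays were fitted. Among the brighter arrays alone the ribosomal protein list was highest (0.43), and with array weights (0.22) or without MII oocyte replicate 3 (0.29) the kinetochore list was. The endoplasmic reticulum folds, glycosylates and quality-checks proteins bound for the membrane or the outside, and in the egg it is also the calcium store emptied at fertilisation. Of 62 of its genes measured, 2 passed the test (Pdia6 and Spcs2, both higher), 25 were higher and 0 lower at an unadjusted p under 0.05 (over all 12713 genes 1201, 9.45%, and 487, 3.83%), and 21 were higher on every SCC array than on any MII oocyte array. None was lower on every array. Over all genes, 1162 (9.14%) were higher and 670 (5.27%) lower without overlap. For 5 of the 21 no array of either group was above background. The median log2 difference of the list was 0.21, against 0.00086 over all genes. The list was also brighter, with a median log2 level of 8.12 against 5.75 over all genes. Among genes above background on all 6 arrays, the median difference was 0.35 for the list and 0.10 for all such genes. With arrays rescaled by cyclic loess or quantile normalization, 20 and 21 of the 62 genes were higher without overlap, and the list median was 0.15 and 0.13. It was 0.22 among the brighter arrays and 0.37 among the dimmer ones. The list had been examined in these data before, so these counts describe it and are not independent evidence.

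Within the list, the genes grouped under disulphide formation held 7 of 12 members higher without overlap, against 9.14% of all genes. Of the 7, 2 (Erp29 and Ero1a) were below background on all 6 arrays. The shares by role are set against all genes, most of them dimmer. Of genes above background on all 6 arrays, 16.7% were higher without overlap. Pdia6, a protein disulphide isomerase, was at 804, 1021 and 909 on SCC replicates 1, 2 and 3 and 286, 409.5 and 424 on MII oocyte replicates 2, 3 and 4, which leaves the highest MII oocyte array well under the lowest SCC array (2.47-fold, log2 difference 1.30, SE 0.161, adjusted p = 0.0239; within the control classes 1.38 among the brighter arrays and 1.15 among the dimmer arrays). Its relatives did not pass. P4hb, the best known isomerase of this family, read 1668, 2116 and 2848 in the SCC and 1072, 964 and 1284 in the MII oocyte (log2 difference 0.97, adjusted p = 0.143). Dnajc10, a reductase with a J domain, read 793, 921 and 1122 in the SCC and 504, 422 and 617 in the MII oocyte (log2 difference 0.88, adjusted p = 0.167). Erp44, which retains client proteins, read 313, 417 and 816 in the SCC and 149.9, 213 and 303 in the MII oocyte (log2 difference 1.15, adjusted p = 0.278). For these 3, as for Pdia5 (0.58, adjusted p = 0.208), all SCC arrays were above all MII oocyte arrays, with SCC replicate 3 the highest and replicate 1 the lowest of the SCC.

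The signal peptidase, which cuts the leader off secreted proteins, contributed Spcs2, at 514, 623 and 597 on SCC replicates 1, 2 and 3 and 278, 308 and 283 on MII oocyte replicates 2, 3 and 4. Both groups were tight and wide apart (1.99-fold, log2 difference 0.99, SE 0.132, adjusted p = 0.0262; within the control classes 1.09 among the brighter arrays and 0.88 among the dimmer arrays). Another Spcs2 probe set, 1450907_at, had overlapping arrays (log2 difference 0.66, adjusted p = 0.464). Its catalytic partner Sec11a read 2446, 2901 and 2487 in the SCC and 1136, 2109 and 1381 in the MII oocyte (1.75-fold, log2 difference 0.81, SE 0.2, adjusted p = 0.143). Of the 9 oligosaccharyl transferase genes, which attach N-glycans, 3 were higher without overlap (33.3%, all genes 9.14%). Ddost of these 3 was below background on all 6 arrays. Rpn1 was at 1035, 1344 and 1609 in the SCC and 418, 742 and 639 in the MII oocyte (2.24-fold, log2 difference 1.17, SE 0.211, adjusted p = 0.069), and Tusc3 at 4099, 4738 and 5018 in the SCC and 2264, 3315 and 2571 in the MII oocyte (1.72-fold, log2 difference 0.78, SE 0.164, adjusted p = 0.106).

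Of the 3 stress sensor genes and the 6 for disposal of misfolded proteins, 2 each were higher without overlap (all genes, 9.14%), and none passed. Atf6, a membrane-bound transcription factor released under stress of the endoplasmic reticulum, was at 407, 377 and 459.6 on SCC replicates 1, 2 and 3 and 232, 223 and 214 on MII oocyte replicates 2, 3 and 4 (1.85-fold, log2 difference 0.89, SE 0.131, adjusted p = 0.0507). Its groups were far apart relative to their spread, and its p was just outside the threshold. Ern1, the sensor kinase also called IRE1, was at 14817, 17634 and 18006 in the SCC and 12916, 10571 and 14039 in the MII oocyte (log2 difference 0.43, adjusted p = 0.279). Syvn1, the ubiquitin ligase that disposes of misfolded proteins, read 333, 565 and 665 in the SCC and 117, 169 and 189 in the MII oocyte (3.22-fold, log2 difference 1.69, SE 0.274, adjusted p = 0.0574). Edem1, which extracts misfolded glycoproteins for disposal, read 254, 320.0 and 336 in the SCC and 186, 152 and 184 in the MII oocyte (1.74-fold, log2 difference 0.80, SE 0.143, adjusted p = 0.069).

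Of the 10 chaperones and their partners, 3 were higher without overlap (30%, all genes 9.14%) and none passed. Dnajb9 and Dnajb11 of these 3 were below background on all 6 arrays. Dnajc3, a partner of the chaperone BiP, read 1545, 2090.1 and 1693 in the SCC and 983, 1079 and 1035 in the MII oocyte (1.71-fold, log2 difference 0.77, SE 0.146, adjusted p = 0.075), and all SCC arrays were above all MII oocyte arrays. Hspa5, which codes for BiP, read 169, 190.0 and 171 in the SCC and 165, 170.1 and 188 in the MII oocyte (log2 difference 0.02, adjusted p = 0.972, 95% interval -0.24 to 0.27). Canx, the membrane chaperone calnexin (-0.03, 95% interval -0.38 to 0.32), and Calr, its soluble counterpart calreticulin (-0.12, 95% interval -0.55 to 0.31), also had overlapping arrays; the signs of these 3 changed under some alternatives. Of the 15 genes of targeting and translocation into the endoplasmic reticulum, 2 (13.3%) were higher without overlap, near the 9.14% over all genes. The members named here beyond the 3 with the smallest p and Syvn1 were chosen after their values were seen. Of the list's genes named in the text, Hspa5, Canx, Rpn1, Syvn1 and Lman1 were read by probe sets marked as sharing probes with other transcripts (_s_at or _x_at).

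**Figure D2:**
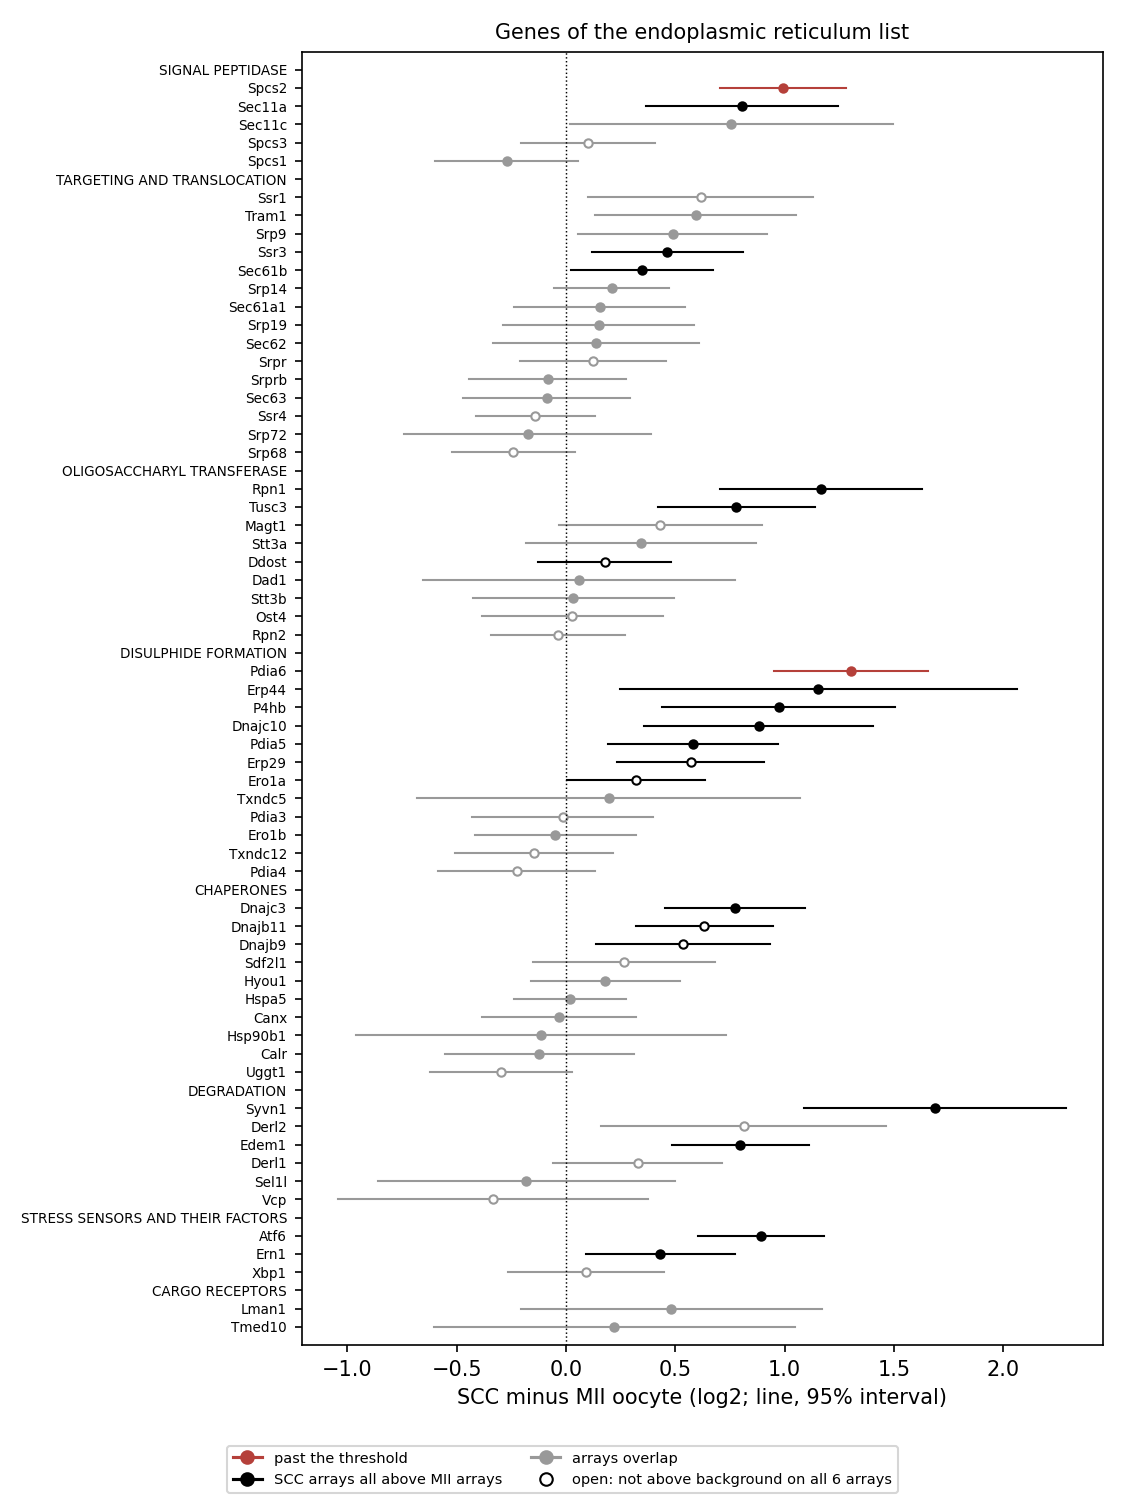
Log2 difference (SCC minus MII oocyte, with its 95% interval) of each of the 62 endoplasmic reticulum genes measured, grouped by role; red marks the 2 past the threshold, black the others with every SCC array above every MII oocyte array, grey those that overlap, and open symbols those not above background on all 6 arrays. Pdia6, Spcs2, Atf6, Syvn1 and Rpn1 have intervals well above 0, while those of Hspa5, Canx and Calr span it.

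Taking the control class of each array as a block, 198 of 12713 genes were higher (1.56%) and 8 lower (0.0629%), and 13 of the 62 endoplasmic reticulum genes were higher and 0 lower. The 13 were Pdia6, P4hb, Dnajc10, Erp44, Pdia5, Spcs2, Rpn1, Dnajc3, Dnajb11, Syvn1, Edem1, Atf6 and Lman1. They are 5 of the 12 in the disulphide group, 2 of the 10 chaperones and their partners, and 2 of the 6 disposal genes. The signal peptidase, the oligosaccharyl transferase, the stress sensors and the cargo receptors held 1 each. Among the 4068 genes above background on all 6 arrays, 679 (16.7%) were higher and 103 (2.53%) lower without overlap, and for the list these were 16 and 0 of 40. That selection leaves out genes seen only in the SCC and genes seen only in the MII oocyte.

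In the lists drawn up for the spindle's machinery, no gene passed among the 55 motor and assembly genes, the 45 kinetochore genes or the 31 cohesin and condensin genes. With the control class as a block, 2 of the 55 passed, Cenpe (adjusted p = 0.0254) and Ciao2b (adjusted p = 0.0161). So did 2 of the 45, Aurkb (adjusted p = 0.0425) and again Cenpe, which is in both lists. Of the 31, 1 passed, Smc4 (adjusted p = 0.0256). All were higher, as were 1.56% of all genes with this block. Of the 45 kinetochore and checkpoint genes, 11 were higher and 3 lower without overlap (all genes, 9.14% and 5.27%), and 8 and 1 of the 30 above background on all 6 arrays (all such genes, 16.7% and 2.53%). The list's median was 0.16 (0.38 among the brighter arrays and 0.11 among the dimmer ones). Cenpe, the kinetochore motor that captures microtubule ends, was at 4049.7, 5556 and 5671 on SCC replicates 1, 2 and 3 and 2950.1, 2714 and 3206 on MII oocyte replicates 2, 3 and 4 (1.71-fold, log2 difference 0.77, SE 0.148, adjusted p = 0.0779). Its arrays separated cleanly, with SCC replicate 1 the lowest of its group. Cenph, of the inner kinetochore, read 347, 452 and 479.9 in the SCC and 215, 308 and 242 in the MII oocyte (log2 difference 0.74, adjusted p = 0.141), and Dsn1, of the outer kinetochore, 764, 951 and 1001 in the SCC and 532, 701 and 590.0 in the MII oocyte (log2 difference 0.57, adjusted p = 0.147). In the other direction stood Mis12, partner of Dsn1, at 27.4, 23.6 and 24.9 in the SCC and 90.4, 28.1 and 57 in the MII oocyte (log2 difference -1.06, adjusted p = 0.217), and Cenpo at 907, 1015 and 917 in the SCC and 1999.7, 1035 and 1389.6 in the MII oocyte (-0.59, adjusted p = 0.276); both were picked after their values were seen, and Mis12 was above background on 1 array. For both, MII oocyte replicate 3 lay next to the SCC arrays.

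In the list of cohesin, condensin and shugoshin, 6 of 31 genes were higher (19.4%) and 0 lower without overlap (median 0.13). Over all genes these shares were 9.14% and 5.27%. All 6 were among its 22 genes above background on all 6 arrays (27.3% higher, all such genes 16.7% higher and 2.53% lower). Smc4, the ATPase core of condensin, was at 2702, 3335 and 3422 on SCC replicates 1, 2 and 3 and 916, 1567 and 1448 on MII oocyte replicates 2, 3 and 4 (2.46-fold, log2 difference 1.30, SE 0.223, adjusted p = 0.0638). The lowest SCC array was far above the highest MII oocyte array. The condensin II subunit Ncapg2 (0.50, adjusted p = 0.158) and Sgo2a, the guardian of centromeric cohesin (0.66, adjusted p = 0.166), were also higher on every SCC array. Of 55 genes of spindle assembly and motors, 13 (23.6%) were higher and 1 (1.82%) lower without overlap (median 0.09). For the 32 above background on all 6 arrays these were 11 (34.4%) and 1 (3.1%). The augmin subunit Haus4, which helps branch microtubules, read 418, 534 and 587 in the SCC and 289.9, 348 and 356 in the MII oocyte (log2 difference 0.62, adjusted p = 0.124), and the dynactin subunit Dctn3, above background on 1 MII oocyte array, 126, 189 and 218 in the SCC and 69.4, 123 and 98.7 in the MII oocyte (0.87, adjusted p = 0.156). The 1 lower was Kpnb1, importin beta, which holds spindle factors inactive, at 444, 499 and 514 in the SCC and 899, 740.4 and 665 in the MII oocyte (-0.65, adjusted p = 0.213).

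Centrosome and organising centre genes held the called Cep290, with 7 (17.5%) higher and 2 (5%) lower without overlap of 40 (median 0.09). Over all genes these shares were 9.14% and 5.27%. For the list's 18 genes above background on all 6 arrays, 3 (16.7%) were higher, as were 16.7% of all such genes. Pcm1, the scaffold of centriolar satellites, read 895, 1098 and 1036 in the SCC and 619, 719 and 780.0 in the MII oocyte (log2 difference 0.52, adjusted p = 0.164). The centrins Cetn2 and Cetn3 were higher on every SCC array, but no MII oocyte array of either was above its background (1.57, adjusted p = 0.183 for Cetn2, 0.87, adjusted p = 0.167 for Cetn3). The 15 tubulin genes had a median of -0.05, with 1 higher and 2 lower without overlap and none past the threshold. The 1 higher was Tubb3, below background on all 6 arrays. With the control class as a block in limma it was called (adjusted p = 0.0495). Tubb2a read 1333, 2096 and 2881 in the SCC and 964, 1408 and 1556 in the MII oocyte (0.64, adjusted p = 0.459), so overlapping. The medians of the spindle, kinetochore, cohesin and centrosome lists stayed positive and the tubulin median negative after cyclic loess and quantile normalization.

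**Figure D3:**
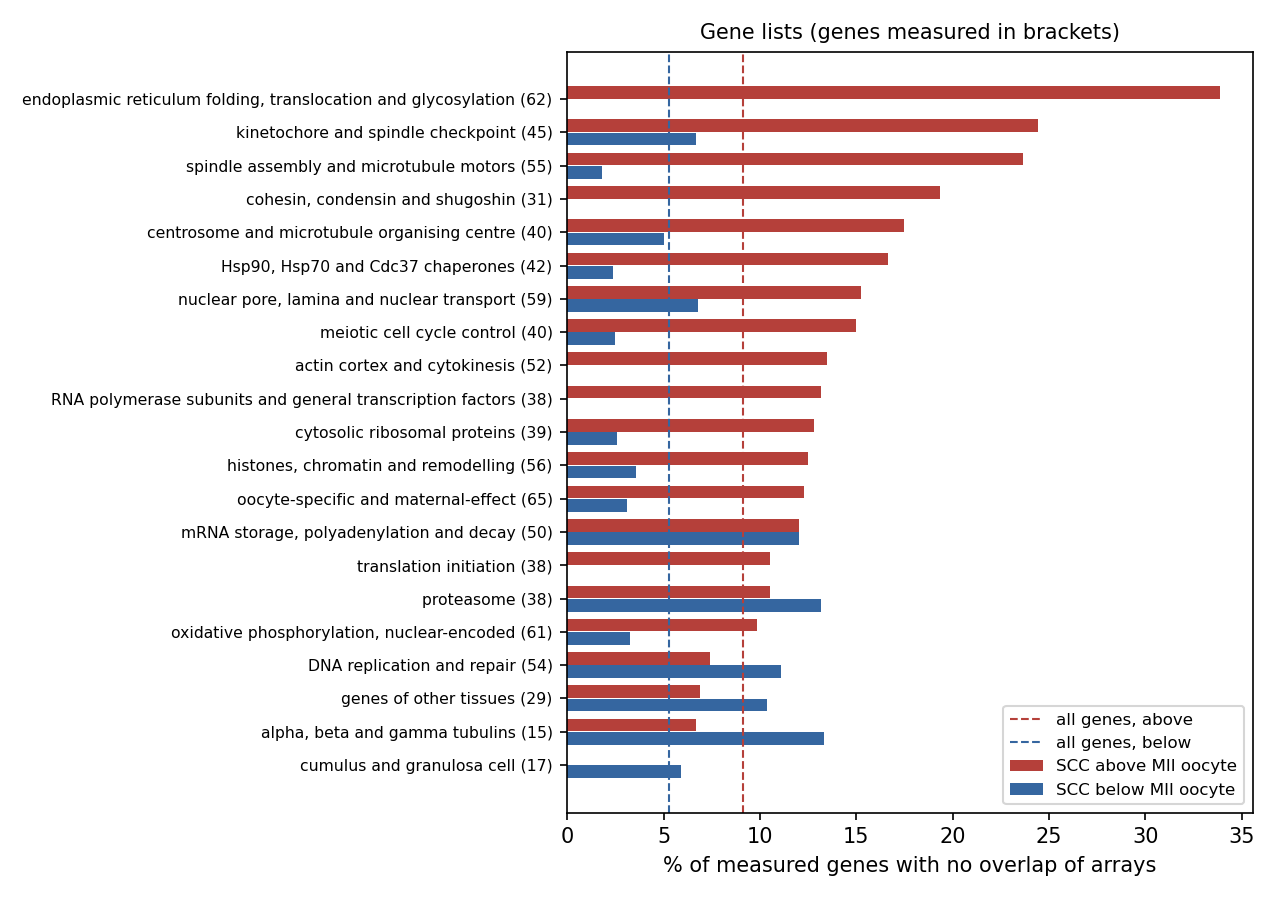
Percent of each list's measured genes (number in brackets) whose 3 SCC arrays all lay above (red) or all below (blue) the 3 MII oocyte arrays, with dashed lines for all 12713 genes (9.14% and 5.27%). The endoplasmic reticulum list has 21 of 62 above and none below.

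Of the set of 12 genes given whatever their values, the spindle and cell cycle genes Tpx2, Aurka, Kif11, Bub1b, Plk1 and Tubb5 did not pass. Tpx2, which activates Aurora A on the spindle, was at 1249, 1516 and 1684 on SCC replicates 1, 2 and 3 and 2613, 1027 and 2356 on MII oocyte replicates 2, 3 and 4 (log2 difference -0.33, SE 0.352, adjusted p = 0.786). MII oocyte replicate 3 was the lowest of the 6 arrays and the other 2 of its group the highest, so the groups overlapped fully. Aurka, which codes for Aurora A, differed by -0.07, adjusted p = 0.944, the motor Kif11 by 0.04, adjusted p = 0.96, the checkpoint kinase Bub1b by 0.08, adjusted p = 0.925 and the tubulin Tubb5 by 0.02, adjusted p = 0.986 (log2); each of these signs turned under some alternatives. Plk1 was below background on all 6 arrays (0.40, adjusted p = 0.32). Mos, the kinase that holds the egg at metaphase, was at 5311, 5275 and 7034 in the SCC and 5734, 2229 and 7361 in the MII oocyte (0.36, adjusted p = 0.857), with MII oocyte replicate 3 far under the other 5 arrays. Gdf9, an oocyte growth factor (0.39, adjusted p = 0.441), Zp3, of the egg coat (0.06, adjusted p = 0.968), the translation repressor Eif4ebp1 (-0.62, adjusted p = 0.559) and beta-actin, Actb (-0.62, adjusted p = 0.488), did not pass either. Without MII oocyte replicate 3, Eif4ebp1 passed as lower in the SCC (-1.13, adjusted p = 0.0294).

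In the meiotic cell cycle list no gene of 40 passed, and 6 (15%) were higher and 1 (2.5%) lower without overlap. Over all genes these shares were 9.14% and 5.27%. For its 26 genes above background on all 6 arrays, 3 (11.5%) were higher, against 16.7% of all such genes. Cks1b and Cks2, small adaptors of the Cdk1 kinase, were at 8014, 8913 and 9436 in the SCC and 6421, 6265 and 7228 in the MII oocyte for Cks1b (0.40, adjusted p = 0.181) and 10024, 12899 and 11809 in the SCC and 8813, 8654 and 9171 in the MII oocyte for Cks2 (0.38, adjusted p = 0.228). Their separation was complete but modest. Ube2c, which passes ubiquitin to targets of the anaphase-promoting complex, was at 54.7, 70.4 and 108 in the SCC and 32.6, 32 and 39.1 in the MII oocyte, below background on all 6 (1.12, adjusted p = 0.108; with the control class as a block adjusted p = 0.0109). Of 38 translation initiation genes 4 were higher and 0 lower without overlap, while the list median was -0.07. Eif5b, which joins the ribosomal subunits, read 238, 286 and 379 in the SCC and 141, 136 and 145 in the MII oocyte (2.1-fold, log2 difference 1.07, SE 0.192, adjusted p = 0.069), and Eif1b, a start codon factor, 2059, 2458 and 2940.3 in the SCC and 791, 1487 and 1289 in the MII oocyte (2.14-fold, log2 difference 1.10, SE 0.217, adjusted p = 0.0878). With the control class as a block both passed (adjusted p = 0.011 for Eif5b and 0.044 for Eif1b), 2 of the 38, against 1.56% of all genes higher.

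Of 50 regulators of stored mRNA none passed, and 6 were higher and 6 lower without overlap, near the shares over all genes (9.14% and 5.27%). The polyadenylation regulators Cpeb4 (0.56, adjusted p = 0.166) and Cpeb3 (0.96, adjusted p = 0.186, with the control class as a block 0.0161) were higher on every SCC array, and the repressor helicase Ddx6 was lower on every one, with no array above background (-0.90, adjusted p = 0.159). Among 65 genes specific to the oocyte or of maternal effect, 8 were higher and 2 lower without overlap, none past the threshold (median 0.06). Kit, the receptor on the oocyte surface, above background on 2 arrays of each group, read 168, 188 and 119 in the SCC and 74, 111 and 109 in the MII oocyte (0.69, adjusted p = 0.193), and Padi6, of the cytoplasmic lattices, 209, 221 and 227 in the SCC and 475, 239.8 and 361 in the MII oocyte (-0.66, adjusted p = 0.221), where MII oocyte replicate 3 was close to the SCC. The ribosomal protein genes had 5 of 39 higher and 1 lower without overlap (median 0.13; Rps14 0.85, adjusted p = 0.105), the proteasome 4 and 5 of 38 (median 0.04), and DNA replication and repair 4 and 6 of 54 (median 0.07). Under cyclic loess or quantile normalization the medians of the mRNA storage, meiotic cell cycle, oocyte-specific, actin cortex, Hsp90 and DNA repair lists turned negative under at least 1 of the 2.

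Among genes without overlap whose 3 arrays in the brighter group were all above background, the 12 largest differences were taken each way. Genes with clone, predicted-gene or accession names were skipped. With the SCC higher these were Atad2, Polr2f, Syvn1, Cox17, Atp6v1g1, Slc35b3, Cetn2, Tm2d1, Atrx, Slc33a1, C1galt1c1 and Glce, between 1.40 and 1.73 on the log2 scale. For Cox17 (at least 1.94-fold) and Cetn2 (at least 1.81-fold) no MII oocyte array was above background, so their place among the 12 is not measured. Only Atad2 and Polr2f passed. Slc35b3 and Glce code for proteins of the Golgi. Slc35b3, a transporter of the sulphate donor, was at 381, 477 and 676 in the SCC and 102, 186 and 229.8 in the MII oocyte (3.05-fold, log2 difference 1.61, SE 0.288, adjusted p = 0.069). Glce, an epimerase of heparan sulphate, was at 1952, 2584 and 3111 in the SCC and 772, 612 and 1809 in the MII oocyte (1.40, adjusted p = 0.213). C1galt1c1, the chaperone of an O-glycan enzyme, was above background on 2 MII oocyte arrays. It read 266, 374 and 387 in the SCC and 73.8, 193 and 124 in the MII oocyte (2.8-fold, log2 difference 1.48, SE 0.321, adjusted p = 0.109). Slc33a1, the acetyl-CoA transporter of the endoplasmic reticulum, above background on 1 MII oocyte array, read 213, 298 and 227 in the SCC and 60.5, 180.3 and 56.1 in the MII oocyte (1.52, adjusted p = 0.184). No list of Golgi genes was examined, so the mention of the Golgi is a remark on 2 genes picked from the 12. MII oocyte replicate 2 was the lowest of its group in 10 of the 12.

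With the SCC lower, the 12 largest differences by the same rule, which leaves out Mis12 and Ddx6 as too dim, ran from -0.91 to -0.78, and none passed. For Rab27a, Mtmr7 and Ttc13 no SCC array was above background, so their place is not measured. Rab27a, a GTPase of vesicle transport, was at 69.1, 75.4 and 82.9 on SCC replicates 1, 2 and 3 and 176, 113 and 144 on MII oocyte replicates 2, 3 and 4 (at least 1.32-fold lower, log2 difference -0.91, SE 0.197, adjusted p = 0.109). Epc2, of a histone acetyltransferase complex, was at 735, 750.3 and 609.7 on SCC replicates 1, 2 and 3 and 1517, 1012 and 1451 on MII oocyte replicates 2, 3 and 4 (1.88-fold lower, log2 difference -0.91, SE 0.176, adjusted p = 0.0834). Mtmr7, a lipid phosphatase (-0.90, adjusted p = 0.069), Limk1, the kinase of cofilin (-0.88, adjusted p = 0.164), and Trim27 (-0.78, adjusted p = 0.124) belonged here too, with Shld1, Ttc13, Psmd6, Gdi2, Vipas39, Gtpbp4 and Supt5. MII oocyte replicate 3 was the lowest of its group in all 12, and so the nearest to the SCC, while replicate 2 was the highest in 11. Of the 103 genes lower without overlap and above background on all 6 arrays, it was the lowest in 71. Of the 12, 6 were read by probe sets whose names mark probes shared with other transcripts (_s_at or _x_at; 50.0%), against 3 of the 12 higher ones (25.0%) and 18.6% of the 4068 genes above background.

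**Figure D4:**
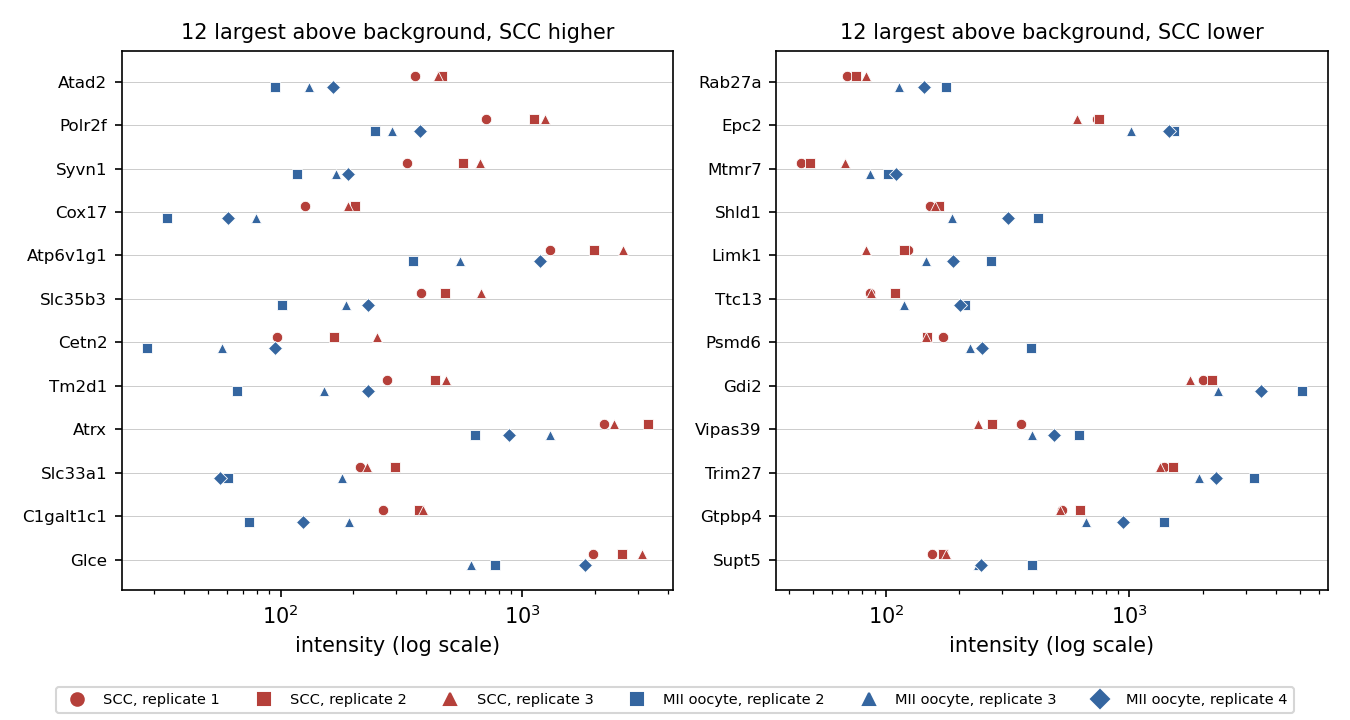
Intensity (log scale) on the 3 SCC arrays (red) and 3 MII oocyte arrays (blue) for the 12 genes with the largest log2 difference in each direction among those without overlap whose brighter group was above background on all 3 arrays. Genes with clone, predicted-gene or accession names were skipped. On the right, where the SCC is lower, MII oocyte replicate 3 (triangle) is the leftmost of its group in all 12 genes.

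Brightness moved with the difference. Over all probe sets tested the median log2 difference was -0.0013, while for the 3944 probe sets averaging above 8 (log2) it was 0.12. Relative to MII oocyte, bright probe sets were lower on SCC replicate 1 (medians between -0.07 and -0.04) and higher on replicates 2 (0.15 to 0.19) and 3 (0.19 to 0.28). Cyclic loess moved the bright median to 0.0077 and quantile normalization to -0.012. Without overlap, 2067 of the 23737 probe sets were higher (8.71%) and 1268 lower (5.34%). Above a mean of 8, between 15.0% and 18.0% of each brightness class were higher without overlap, against 4.65% at a mean of up to 5, and the part of brightness in the list counts was not tested. For genes, the split of 1162 higher and 670 lower became 1079 and 1008 after cyclic loess and 977 and 1147 after quantile normalization. The log2 differences of the 10 called probe sets lay between 0.97 and 1.73. All 10 passed after cyclic loess and 6 of them after quantile normalization. The part of brightness in these calls was not tested.

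**Figure D5:**
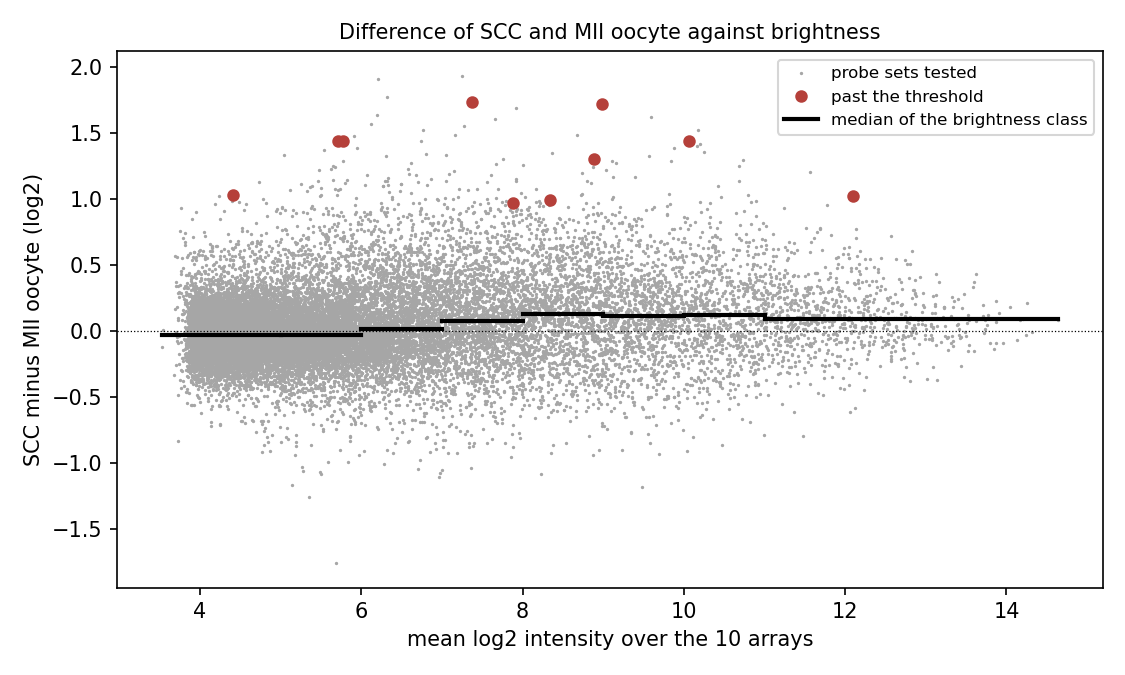
Log2 difference (SCC minus MII oocyte) of the 23737 probe sets tested against their mean log2 intensity over the 10 arrays; red marks the 10 past the threshold and black bars the median of each brightness class. The medians lie slightly under 0 among dim probe sets and between 0.09 and 0.13 above a mean of 8.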

How the data were processed

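Arrays were grouped by their titles. The deposited intensity values are on a linear scale; the authors used RMA, per the submitters' processing notes, with version and settings not given in the sources used here. RMA corrects background, normalizes and summarises probes, so values are meant for comparison between arrays for 1 probe set, not between probe sets. Array-wide differences were left in the deposited values. The 95th percentile of intensity ran from 568 on MII oocyte replicate 3 to 797 on SCC replicate 3. Per the labels' protocols, RNA went through 2 rounds of amplification.

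Log2 was taken, and probe sets above the array's median (percentile 50) on at least 3 arrays were kept (23737 of 45101; 64 controls left out). Groups were compared with limma 3.58.1 in R 4.3.3 over all 10 arrays, with Benjamini-Hochberg adjustment over all kept probe sets. The platform annotation gave 1 gene for 34945 probe sets, several for 932 and no gene for 9160; 34741 matched RefSeq's gene table (GRCm38.p6), used for names. A gene's value was that of its brightest single-gene probe set. The procedure was run on simulated data with independent noise for each probe set and array. Such data lack the array-wide differences seen here, so the run cannot show how those bear on the calls. Where a group had no array above background, the fold is a lower bound, the brighter group's mean over that of the background or the dimmer value, whichever was higher on each array; none is given where the bound was under 1 or no array of the brighter group was above background.

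The members and the 21 lists were chosen with earlier results of these data known. Named are the called genes, 3 genes per list with the smallest p, and 12 set genes. Also named are the 12 largest differences each way among genes without overlap whose brighter group was above background on all 3 arrays. Clone, predicted-gene and accession names were skipped in choosing these. The text leaves some genes out and names those added later. Alternatives were other normalizations, filters and fits, blocks by replicate number and control class, and each array left out. Scanner files were not used here, and no probe sequences or coordinates are printed.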

Additional observations from a re-analysis of the deposited data

How the results depend on the processing

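With its 6 arrays, the comparison made few calls, and their number moved with the setting. Higher probe sets numbered 10, and 6 after quantile normalization, 14 after cyclic loess, 16 with no filter, 8 with a filter at the 75th percentile or an intensity trend, 391 (85 lower) with array weights, 296 (15 lower) with the control level as a covariate, 308 (19 lower) with the control class as a block, 1291 (396 lower) in the brighter class alone and 6 (4 lower) in the dimmer class alone (each with 1 group of a single array, assumed to vary like the other groups), and 0 with only the 6 arrays. With 1 array left out they ran from 0 to 444 higher and 0 to 253 lower. Genes without overlap, easier to reach with an array fewer, then ran from 1403 to 2518 higher and 915 to 2990 lower. With all arrays, lower ones were 1008 after cyclic loess, 1147 after quantile normalization, 1013 with no filter and 332 with the stricter filter. Beyond the smaller number of arrays or genes, the cause was not tested. The 10 called probe sets had no overlap of arrays, so their direction within a class or with 1 array left out was fixed beforehand. All 10 called probe sets kept their direction in each alternative that tested them; none passed in the dimmer class alone, and quantile normalization lost Cep290, Pdia6, Spcs2 and Atrx 1453734_at.

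Arrays of the same replicate number had residual correlations of -0.30 to 0.61 over 8 pairs, 2 of them over 0.1. The labels do not say what a shared number means, so it was not taken as a pairing; as a block it gave 125 higher and 14 lower calls, the 10 among them.

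Among the uncalled genes named, log2 signs turned with cyclic loess Hspa5 (-0.048), Zp3 (-0.033), Bub1b (-0.059), Kif11 (-0.069), Tubb5 (-0.046); with quantile normalization Hspa5 (-0.079), Zp3 (-0.086), Kif11 (-0.086), Tubb5 (-0.078); with array weights Mos (-0.0097), Zp3 (-0.045), Bub1b (-0.027), Kif11 (-0.037), Tubb5 (-0.068); with the replicate number as a block Aurka (0.11); with the control level as a covariate Aurka (0.078); with the control class as a block Canx (0.0017), Aurka (0.12); with the brighter class alone Hspa5 (-0.049), Tubb5 (-0.12); with the dimmer class alone Canx (0.33), Calr (0.085), Eif4ebp1 (0.25), Tpx2 (0.42), Aurka (0.32), Zp3 (-0.27), Actb (0.076). With 1 array left out, differences that turned ran from Hspa5 -0.036 to 0.073; Canx -0.18 to 0.14; Calr -0.25 to 0.13; Aurka -0.30 to 0.061; Zp3 -0.19 to 0.25; Kif11 -0.10 to 0.19; Mos -0.16 to 0.70; Bub1b -0.13 to 0.22; Tubb5 -0.12 to 0.15. Genes dim on these arrays are limited by background, and the number of arrays limits the rest.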

Other observations

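Outside the spindle and the endoplasmic reticulum, no gene passed in the lists of the nuclear envelope and pore (59 measured), oxidative phosphorylation (61) or the proteasome (38), and 1 passed among 52 of the actin cortex (Anln). With the control class as a block, Lbr (adjusted p = 0.0308), Ndufa4 of oxidative phosphorylation (0.0452), and Diaph1 (0.0128) and Cttn (0.0269) of the actin cortex also passed, all higher, as did Cpa1 (0.0288) of the list of genes of other tissues. Over all genes, 1.56% were higher with this block. Of the nuclear envelope and pore genes 9 were higher and 4 lower without overlap (all genes, 9.14% and 5.27%). Lbr, the lamin B receptor of the inner nuclear membrane, read 2656, 3558 and 3984 in the SCC and 1116, 1081 and 2306 in the MII oocyte (log2 difference 1.25, adjusted p = 0.173). The pore subunit Nup107 read 551, 693 and 771 in the SCC and 363, 466 and 478 in the MII oocyte (log2 difference 0.62, adjusted p = 0.142). Diaph1, a formin that nucleates actin filaments, read 1611, 1883 and 2279 in the SCC and 1291, 936 and 1337 in the MII oocyte (log2 difference 0.70, adjusted p = 0.156). All SCC arrays of these 3 lay above all MII oocyte arrays.

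Single genes of 1 list stood in opposite directions. Psma2, a ring subunit of the proteasome core, read 2426, 3182 and 3541 in the SCC and 1314, 1984 and 2109 in the MII oocyte (log2 difference 0.77, adjusted p = 0.177), while its ring neighbour Psma6 read 710.5, 792 and 906 in the SCC and 1276, 929 and 1214 in the MII oocyte (log2 difference -0.50, adjusted p = 0.194). In DNA replication, the kinase Cdc7 read 430.3, 531 and 662 in the SCC and 272, 405 and 365 in the MII oocyte (log2 difference 0.64, adjusted p = 0.208), and the helicase subunit Mcm5, with no SCC array above background, 87.4, 87.8 and 109 in the SCC and 216, 114 and 153 in the MII oocyte (at least 1.44-fold lower, adjusted p = 0.183). The ubiquitin hydrolase Uchl1 read 114, 126 and 143 in the SCC and 49.6, 66.5 and 75.7 in the MII oocyte, with no MII oocyte array above background (at least 1.45-fold higher, adjusted p = 0.069, with the control class as a block 0.0321), and Dnmt1, the maintenance DNA methyltransferase, 1962, 2397 and 3419 in the SCC and 770.1, 1556 and 1633 in the MII oocyte (log2 difference 1.01, adjusted p = 0.282); Dnmt1 was named after its values were seen. None of these 6 passed in the fit without a block, and in each the 2 groups of arrays did not overlap.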
